A study of Mus musculus with 8 samples.

Results

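The effect of chronic restraint stress on brain RNA was measured as the difference between 4 libraries from stressed mice and 4 libraries from mock-treated mice, with genotype kept as a blocking term so that stressed and mock brains were set against each other within each genotype. All 8 of the 8 libraries of the series entered the comparison, and 17182 of the 54532 genes of the deposited count table had enough counts to be tested. The 4 groups of 2 libraries were wild-type (WT) mice that were mock-treated, WT mice under chronic restraint stress, mice with cerebral amyloid angiopathy (CAA) that were mock-treated, and CAA mice under chronic restraint stress. In CAA the vessel walls of the brain accumulate amyloid-beta, and the series asked how stress acts on this disease and on neutrophil extracellular traps (NETs), nets of DNA that neutrophils cast out with their granule proteins. All mice were perfused with PBS, a salt buffer, before the brains were taken for RNA. The sources used here do not give the transgene or strain behind CAA, the age of the mice, the length of the stress or the part of the brain that gave the RNA. The titles number the libraries and do not say whether each is a different mouse, so the spread behind each p-value is that between these libraries. In WT mock and in CAA stress the 2 libraries differ in sex by their RNA, as given below, so they come from different mice. In WT stress and CAA mock the spread may be technical.

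Restraint activates the hypothalamic-pituitary-adrenal axis: corticotropin-releasing hormone from the hypothalamus and corticotropin from the pituitary make the adrenal gland release corticosterone, the main glucocorticoid of mice. Corticosterone enters the brain and binds the mineralocorticoid and glucocorticoid receptors, which act on DNA and switch on genes such as Fkbp5, Sgk1 and Per1. Stress also releases noradrenaline, drives immediate early genes in neurons and is known to act on microglia, astrocytes and the traffic of blood leukocytes.

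Libraries of 1 group differed from each other in ways that the labels do not explain. Total counts per library ran from 17275201 to 18894657. The non-coding RNA Xist and the Y-linked gene Ddx3y placed 2 libraries as female, WT mock 1 (4575 Xist counts) and CAA stress 1 (3340 counts), and 6 as male. Each gene of a marker list was centred on its mean log2 level over the libraries, and the mean over the list is called its level. Striatal markers, among them the genes of both main dopamine receptors, lay at -2.05 in WT mock 1 and -2.10 in CAA mock 2, both mock libraries, and at 0.15 to 1.06 in the other 6. Choroid plexus markers lay at 1.98 in WT stress 2 and 1.67 in CAA stress 1, both stress libraries, and at -1.35 to 0.68 in the other 6. These are called the low-striatum pair and the choroid-rich pair. Each pair holds 1 of the female libraries, so values in males also leave out 1 library of each pair. In such values sex cannot be told apart from tissue make-up. Red cell genes lay at 3.30 in WT stress 1 and at -2.06 to 0.29 in the others. Since these libraries fall in 1 arm each, results that moved most are also given without them, and beyond that the part of tissue make-up in any difference was not tested. In bulk tissue fewer cells of a type and less RNA per cell cannot be told apart.

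**Figure D1:**
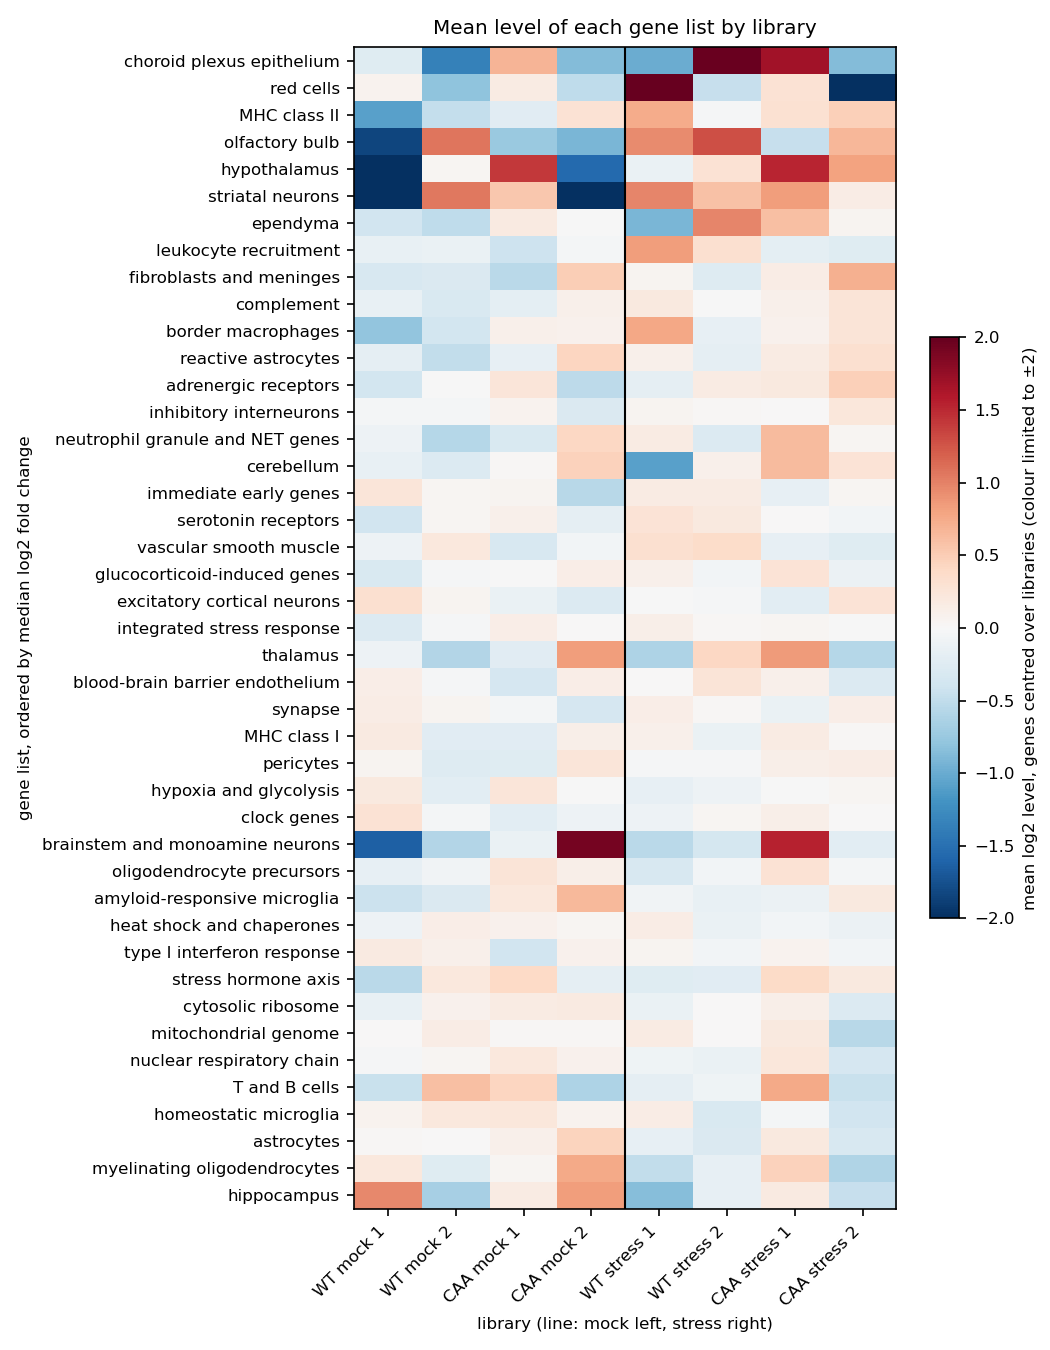
Mean log2 level of 43 gene lists (rows, ordered by their median log2 fold change) in each of the 8 libraries (columns, mock left of the line and stress right of it), each gene centred over the libraries; red is higher and blue lower. Striatal neurons are lowest in WT mock 1 (-2.05) and CAA mock 2 (-2.10), choroid plexus is highest in WT stress 2 (1.98) and CAA stress 1 (1.67), and for 0 of the 43 lists do the mock and stress libraries separate without overlap.

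No gene passed the test for stress over all genes. In edgeR's quasi-likelihood test 0 of 17182 genes (0%) had a Benjamini-Hochberg adjusted p under 0.05, and the smallest adjusted p was 0.384. An unadjusted p under 0.05 was found for 637 genes (3.71%), 329 higher and 308 lower under stress, where p-values spread evenly from 0 to 1 would give 859. Counts of list members at this threshold, given below, stand beside that 3.71%. The genes were split evenly, 50.7% higher and 49.3% lower, with a median log2 fold change of 0.00 and a median standard error of 0.17. For 165 genes (0.96%) all 4 stress libraries lay above all 4 mock libraries, and for 149 genes (0.867%) all 4 lay below. For 1 gene an exact permutation test (two-sided, 4 libraries in each arm, shuffled without regard to genotype) has 0.0286 as its smallest possible p, whatever the size of the difference. Shuffling within each genotype, which the blocked comparison would ask for, allows fewer arrangements, so its smallest possible p is larger. DESeq2 called 3 genes (0.0175%), Entpd4b, Abca4 and Grp, described below. Without the filter on low counts edgeR called 188 of 29446 genes (0.638%), 105 higher and 83 lower, in a fit whose prior degrees of freedom had an infinite median. Of those 188 genes 185 were in the filtered set, so nearly all were tested with the filter too and did not pass there. The smallest edgeR adjusted p without the filter (1.1e-90) was that of Gapdh, whose mock libraries held 38 to 1894 counts. In the edgeR fit with the filter the genotype term, CAA against WT, called 2 genes (0.0116%). All fold changes below are edgeR log2 fold changes of stress minus mock with their standard error (SE), and levels are CPM, counts scaled to library size with TMM factors. Genes are given as values because none passed in edgeR: Entpd4b had the adjusted p of 0.384, and for every other gene named it was 0.917 or higher.

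Genes of the stress hormone axis showed no common direction. Of 13 tested genes 4 were higher and 9 lower (median log2 fold change -0.12), and 2 had an unadjusted p under 0.05. Both belong to corticosteroid action in the target cell. Hsd11b1, which encodes the enzyme that regenerates active corticosterone inside cells, lay at 29.0 and 16.5 CPM in the WT mock libraries, 17.5 and 36.6 in CAA mock, 12.4 and 8.82 in WT stress and 18.3 and 9.43 in CAA stress (replicate 1 before replicate 2 here and below). The arms overlapped because CAA stress 1 lay above WT mock 2 and CAA mock 1. Its log2 fold change was -1.03 ± 0.30 (95% interval -1.71 to -0.35, edgeR adjusted p = 0.917), and it was -0.49 without the low-striatum pair. Nr3c2, the mineralocorticoid receptor, lay at 57.6, 43.1, 51.6 and 58.0 CPM in the mock libraries (WT before CAA) and at 44.7, 43.4, 38.5 and 41.9 CPM in the stress libraries. WT mock 2 alone of the mock libraries reached down to the stress range. Nr3c2 had a log2 fold change of -0.32 ± 0.12 (95% interval -0.59 to -0.05), and -0.17 both without the low-striatum pair and in the 6 male libraries. Nr3c1, the glucocorticoid receptor, had a log2 fold change of -0.11 ± 0.11 (95% interval -0.35 to 0.13), which turned to 0.03 without the low-striatum pair. Crh, corticotropin-releasing hormone, stood at 0.24 ± 0.32 and turned to -0.22 without that pair. The adrenergic receptors were higher for 7 of 9 (median 0.17), but the median was -0.078 without CAA mock 2 and 0.35 without WT stress 1. Without the low-striatum pair 5 were higher and 4 lower (median 0.054). Adra1b, the member with the smallest p, had 0.52 ± 0.24 (95% interval -0.01 to 1.06).

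Genes that glucocorticoids induce lay slightly higher under stress, by less than the spread between libraries. Of 26 such genes, all of them tested, 20 were higher and 6 lower with a median log2 fold change of 0.12, against 8709 higher, 8473 lower and a median of 0.00 over all genes tested. Unadjusted p-values under 0.05 were found for 4 (Plin4, Hif3a and Fkbp5 higher, Zbtb16 lower), against 3.71% of all genes tested. Fkbp5, the co-chaperone that damps the glucocorticoid receptor and a standard readout of corticosterone, lay at 34.5 and 49.0 CPM in WT mock, 59.1 and 44.4 in CAA mock, 56.0 and 53.7 in WT stress and 62.0 and 60.2 in CAA stress. All stress libraries lay above 3 of the mock libraries, and CAA mock 1 lay within the stress range. Its log2 fold change was 0.32 ± 0.14 (95% interval 0.02 to 0.61, edgeR adjusted p = 0.917), 0.10 without the low-striatum pair and 0.19 in males. Plin4, a lipid droplet protein, lay at 3.93, 10.5, 4.26 and 5.13 CPM in mock and 7.39, 13.1, 15.6 and 9.54 CPM in stress, where WT mock 2 overlapped. It had the largest fold change of the list (0.96 ± 0.35, 95% interval 0.18 to 1.73), which was 0.48 in males. Hif3a, a hypoxia-inducible factor subunit, had 0.55 ± 0.24 and Angptl4, a lipoprotein lipase inhibitor, 0.46 ± 0.23. Per1, a clock gene that glucocorticoids switch on, had 0.25 ± 0.16, Sgk1, a kinase of ion transport, 0.13 ± 0.15, and Tsc22d3, the anti-inflammatory leucine zipper GILZ, -0.15 ± 0.27 (95% interval -0.76 to 0.46). The metallothionein genes Mt1 and Mt2 stood at -0.38 and -0.66. Leaving out CAA stress 1 gave a list median of 0.06 and leaving out CAA stress 2 gave 0.19. It was 0.047 without the choroid-rich pair, with 16 higher and 10 lower, and 0.01 in the male libraries, with 14 higher and 12 lower.

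**Figure D2:**
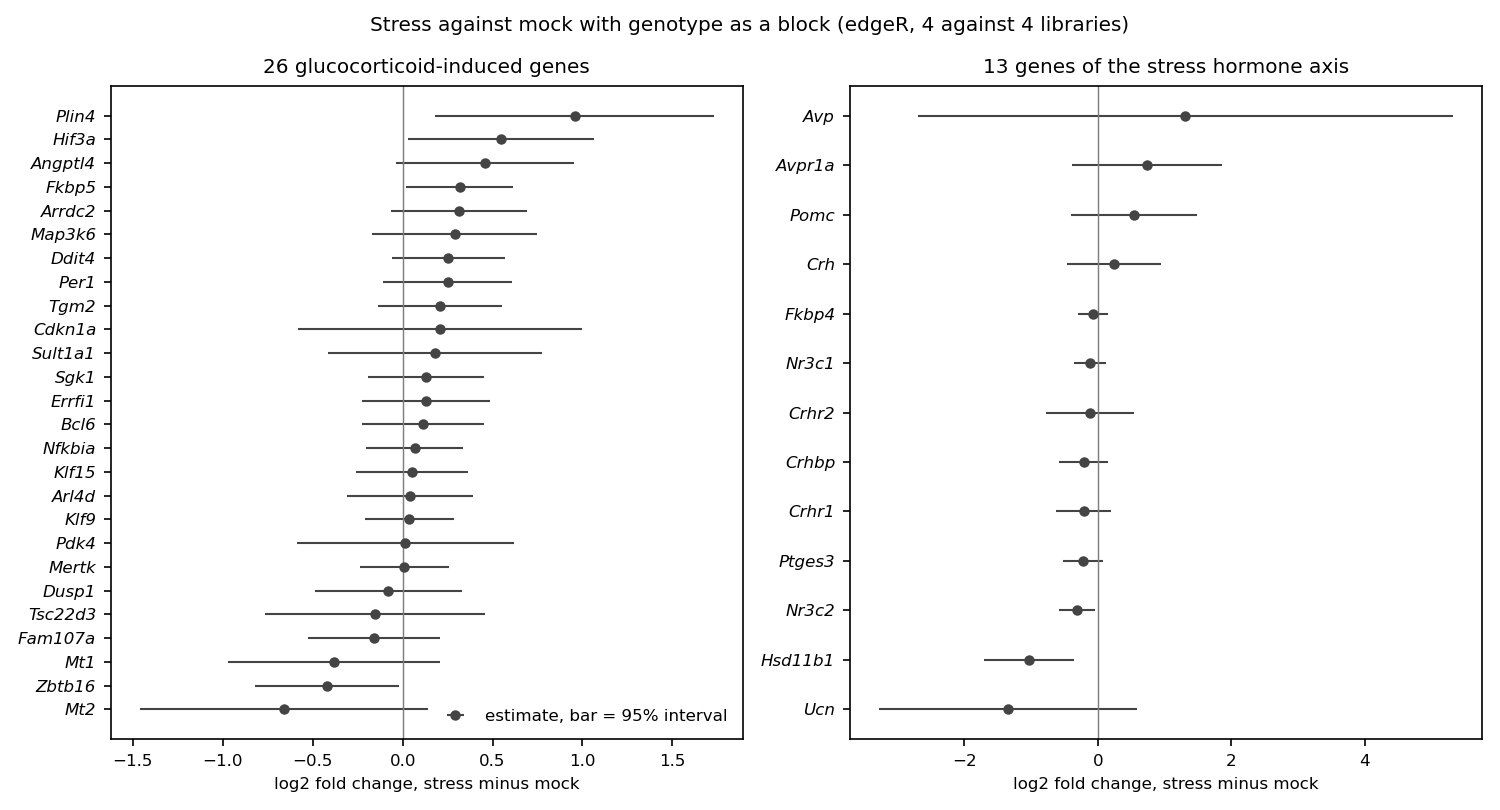
Log2 fold change of stress minus mock (x axis; points, with 95% intervals as bars) for 26 glucocorticoid-induced genes and 13 genes of the stress hormone axis, from 4 stress and 4 mock libraries with genotype as a block. Most intervals include 0; those of Plin4 (0.96), Hif3a (0.55) and Fkbp5 (0.32) lie above it, and those of Hsd11b1 (-1.03), Zbtb16 (-0.42) and Nr3c2 (-0.32) below it.

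The glucocorticoid receptor binds DNA at a palindrome of AGAACA and TGTTCT spaced by 3 free bases. RefSeq promoters (GRCm38.p6, 250 bases before to 50 after a transcript start) were found for 23 of the 26 genes, 36 promoters in all. The palindrome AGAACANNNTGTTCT, searched on both strands, was in 1 of them, an Sgk1 promoter, and in 3 of all 32851 promoters (0.00913%). The single AGAACA, which the palindrome contains, was in 8 of the 36 promoters (22.2%, 5 genes) and in 19% of all promoters. The Sgk1 promoter, 1 of its 6, is shown because it holds the textbook element. It lies at chr10:21993640-21993919 on the plus strand and runs from 250 bases before to 30 after the start, with the palindrome in capitals from 189 bases before the start.
Sgk1 promoter: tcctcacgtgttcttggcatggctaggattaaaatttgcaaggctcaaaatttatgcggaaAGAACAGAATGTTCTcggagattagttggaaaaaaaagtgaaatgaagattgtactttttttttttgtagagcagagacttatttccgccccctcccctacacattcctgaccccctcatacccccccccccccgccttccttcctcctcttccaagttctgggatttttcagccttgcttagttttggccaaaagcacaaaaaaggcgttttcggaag
Sgk1 RNA itself lay at 147, 155, 162 and 211 CPM in mock and 162, 197, 228 and 149 CPM in stress. The arms overlapped throughout.

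Immediate early genes, the first to be transcribed when a neuron fires, had no common direction that held across libraries. Of 22 genes 15 were higher and 7 lower (median 0.14), with 2 at an unadjusted p under 0.05. Both of those, Nr4a2 and Nr4a3, were lower and encode orphan nuclear receptors, while their relative Nr4a1 had -0.07 ± 0.18. Nr4a2 (Nurr1) lay at 48.3, 30.5, 46.7 and 48.8 CPM in mock and 34.3, 25.6, 19.3 and 17.8 CPM in stress. WT stress 1 lay above WT mock 2, so that the arms overlapped by that pair of libraries alone. Its log2 fold change was -0.88 ± 0.22 (95% interval -1.35 to -0.40, edgeR adjusted p = 0.917), and it ran from -1.10 to -0.74 as each library was left out. Nr4a3 lay at -0.45 ± 0.17 (95% interval -0.81 to -0.08). Fos, the classic marker of neuronal firing, lay at 12.4, 10.4, 10.9 and 7.89 CPM in mock and 13.2, 19.7, 11.3 and 10.5 CPM in stress (0.37 ± 0.18, 95% interval -0.02 to 0.76, and 0.18 without the choroid-rich pair). WT stress 2 was the highest library for Fos and for Npas4, a factor of inhibitory synapse formation. Arc, of synaptic scaling, had 0.38 ± 0.26, and Egr1 had 0.02 ± 0.15 (95% interval -0.32 to 0.35). The list median was 0.01, with 11 higher and 11 lower, without the low-striatum pair.

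RNA of neutrophils was scarce in every library, so that genes of NETs could be compared for few members. Of 23 neutrophil granule and NET genes only 10 passed the filter on low counts, 6 higher and 4 lower under stress, and a median over them leaves out the rest. Mpo, the granule peroxidase, had 0 to 6 counts per library, and Padi4, the enzyme that citrullinates histones in NET formation, 0 to 2. Elane, neutrophil elastase, had 0 to 3 counts, Ly6g, a mouse neutrophil surface marker, 0 to 2, and Ctsg, cathepsin G, had 0 in all 8. S100a8 and S100a9, the calprotectin subunits, lay at 0.112 to 1.58 CPM and 0.0584 to 2.03 CPM in mock and at 0.276 to 1.74 CPM and 0.482 to 1.69 CPM in stress. Their log2 fold changes were 0.45 ± 0.74 (95% interval -1.18 to 2.08) and 0.28 ± 0.73 (95% interval -1.33 to 1.88). Within the mock arm alone counts ran from 2 to 28 for S100a8 and from 1 to 36 for S100a9. Lcn2, lipocalin-2, which reactive astrocytes also make, had the smallest p of its list. It lay at 0.484, 0.0561, 0.350 and 0.958 CPM in mock and 1.31, 0.441, 3.65 and 0.804 CPM in stress, with overlap (1.71 ± 0.66, 95% interval 0.28 to 3.14, DESeq2 adjusted p = 0.994).

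Among genes that bring leukocytes into tissue the smallest p was that of Icam1, the endothelial ligand of leukocyte integrins. It lay at 1.83, 1.12, 1.52 and 1.41 CPM in mock and 5.15, 2.09, 2.34 and 2.14 CPM in stress. All stress libraries lay above all mock libraries, and WT stress 1 stood well above the other 3. Icam1 had a log2 fold change of 0.96 ± 0.34 (95% interval 0.21 to 1.70) and 0.57 without WT stress 1. Ccl2, a monocyte chemokine gene, had a larger fold change (2.61 ± 1.14, 95% interval 0.10 to 5.12), with 75 counts in WT stress 1 and 0 to 11 in the others. WT stress 1 also had 90 counts of the neutrophil chemokine gene Cxcl1 (0 to 7), 28 of Cxcl2 (0 in the others) and 22 of the interleukin gene Il1b (0 to 5). It is the library in which red cell genes were high, with Hba-a1 at 45.6 CPM against 0.964 to 6.49 CPM in the other 3 stress libraries. Whether blood left in that brain had a part in these values was not tested. Ackr1, the chemokine receptor of venules, lay at 23.1 to 31.7 CPM in mock and 25.3 to 45.1 CPM in stress (0.47 ± 0.18, 95% interval 0.08 to 0.87, 0.28 without the low-striatum pair). Of the 19 recruitment genes 8 were tested, 5 higher and 3 lower.

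Genes of antigen presentation by MHC class II lay higher under stress. All 7 of the 7 had a positive log2 fold change (median 0.90, with 1.33 in WT and 0.29 in CAA). An unadjusted p under 0.05 was found for 3 of them, against 3.71% of all genes tested. H2-Ab1, the beta chain of the I-A molecule, lay at 0.699, 0.730, 1.40 and 1.46 CPM in mock and 2.46, 1.16, 2.07 and 2.20 CPM in stress, where WT stress 2 lay within the mock range. Its log2 fold change was 0.93 ± 0.35 (95% interval 0.18 to 1.68). Cd74, the invariant chain that guides class II molecules, lay at 1.56, 2.30, 2.80 and 5.46 CPM in mock and 7.72, 4.08, 5.18 and 4.61 CPM in stress (0.90 ± 0.35, 95% interval 0.14 to 1.67), with CAA mock 2 above 3 of the stress libraries. H2-Eb1 and H2-Aa had 1.11 ± 0.49 and 1.17 ± 0.60. The class II median was 0.54 without WT stress 1. In males it was 0.74, and it was 0.88 without the low-striatum pair and 1.14 without the choroid-rich pair, with 7 of 7 higher in each of the last 3 settings. Class II is carried in brain tissue mainly by macrophages of the brain borders, and 8 of 9 tested border macrophage genes were higher (median 0.32). Mrc1, the mannose receptor, lay at 2.26, 1.46, 2.22 and 3.77 CPM in mock and 4.11, 2.76, 3.76 and 7.34 CPM in stress (0.88 ± 0.30, 95% interval 0.24 to 1.53). Cd163, the haemoglobin scavenger receptor, lay at 1.83, 2.25, 2.45 and 3.15 CPM in mock and 4.16, 3.47, 3.16 and 3.80 CPM in stress without overlap (0.60 ± 0.25, 95% interval 0.07 to 1.14). The border macrophage median was -0.04 without WT stress 1 and 0.70 without the choroid-rich pair.

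Most astrocyte genes lay lower under stress, though the levels of the list overlapped between arms. CAA stress 1 (level 0.20) lay above every mock library except CAA mock 2 (0.44). Of 12 astrocyte markers 11 were lower (median -0.32). Of these, 3 (Gfap, Aqp4 and Gja1) had an unadjusted p under 0.05, against 3.71% of all genes tested. Gfap encodes the glial intermediate filament whose level marks reactive astrocytes. It lay at 323 and 197 CPM in WT mock, 390 and 676 in CAA mock, 162 and 189 in WT stress and 317 and 251 in CAA stress. Within each genotype both stress libraries lay below both mock libraries, while the CAA stress libraries lay within the WT mock range. Gfap had a log2 fold change of -0.74 ± 0.20 (95% interval -1.19 to -0.29, edgeR adjusted p = 0.917), with -0.57 in WT and -0.91 in CAA, and it was -0.32 without the low-striatum pair. Aqp4, the water channel of astrocyte endfeet on vessels, lay at 191, 188, 186 and 300 CPM in mock and 166, 134, 174 and 135 CPM in stress without overlap (-0.49 ± 0.16, 95% interval -0.84 to -0.15), and at -0.30 without the low-striatum pair. Gja1, connexin-43, had -0.38 ± 0.17. Reactive astrocyte genes as a list went the other way for 9 of 11 tested members (median 0.20), with Lcn2 above and the complement gene C4b at 0.38 ± 0.19. Leaving out CAA stress 2 gave an astrocyte median of -0.16, and the male libraries gave -0.54.

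STAT3, the factor that cytokines of the interleukin-6 family activate, is known to drive both Gfap and Socs3, its feedback inhibitor. A promoter of each gene is shown because their RNA lay on opposite sides, Gfap lower and Socs3 higher. The STAT motif TTCNNNGAA, which reads the same on both strands, was in 8.3% of all RefSeq promoters. A Socs3 promoter (RefSeq, GRCm38.p6, chr11:117969337-117969616, minus strand) and a Gfap promoter (chr11:102897171-102897450, minus strand) held 1 match each, in capitals, starting 154 and 2 bases before the start. Only promoters with a match were listed, and any others of these genes are not described. Both stretches lie inside the spans of their genes in the deposited tables.
Socs3 promoter: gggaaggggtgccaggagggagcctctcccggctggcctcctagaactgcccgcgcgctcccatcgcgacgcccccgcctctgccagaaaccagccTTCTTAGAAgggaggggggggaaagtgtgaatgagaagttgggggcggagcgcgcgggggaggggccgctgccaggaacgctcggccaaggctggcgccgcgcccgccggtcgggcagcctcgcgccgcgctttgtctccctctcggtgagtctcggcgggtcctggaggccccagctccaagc
Gfap promoter: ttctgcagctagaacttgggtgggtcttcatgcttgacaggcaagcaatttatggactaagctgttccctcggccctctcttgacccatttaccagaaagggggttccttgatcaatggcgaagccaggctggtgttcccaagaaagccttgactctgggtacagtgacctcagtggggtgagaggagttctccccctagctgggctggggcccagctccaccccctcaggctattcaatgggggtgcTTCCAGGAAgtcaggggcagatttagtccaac
Socs3 (ENSMUSG00000053113) lay at 2.47 and 2.08 CPM in WT mock, 2.39 and 4.39 in CAA mock, 5.04 and 5.18 in WT stress and 5.72 and 6.70 in CAA stress. All 4 stress libraries lay above all 4 mock libraries. Its log2 fold change was 1.01 ± 0.24 (95% interval 0.50 to 1.52, edgeR adjusted p = 0.917, DESeq2 adjusted p = 0.168), 0.88 to 1.24 as each library was left out, 1.33 without the low-striatum pair and 1.06 without the choroid-rich pair. Socs3 is among the genes chosen below for arms without overlap, so these subsets are no separate support.

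Genes of oligodendrocytes and microglia also lay lower. All 15 myelin genes were lower (median -0.33), 2 with an unadjusted p under 0.05, against 3.71% of all genes tested. Ugt8a, which makes the galactolipids of myelin, lay at 83.7, 56.0, 67.8 and 119 CPM in mock and 48.5, 54.4, 68.0 and 35.8 CPM in stress (-0.64 ± 0.25, 95% interval -1.21 to -0.08), and Opalin, a myelin membrane protein, had -0.51 ± 0.21. The myelin level was highest in CAA mock 2 (0.76) and lowest in CAA stress 2 (-0.60), and CAA stress 1 (0.46) lay above the other mock libraries. The myelin median was -0.09, with 5 higher and 10 lower, without the low-striatum pair. It was -0.77 without the choroid-rich pair. Of 14 homeostatic microglia genes 13 were lower (median -0.26), 3 with an unadjusted p under 0.05, against the same 3.71%. P2ry13, a purine receptor of surveying microglia, lay at 12.5, 9.43, 9.87 and 11.3 CPM in mock and 10.4, 7.66, 6.16 and 4.34 CPM in stress, where WT stress 1 overlapped (-0.64 ± 0.21, 95% interval -1.10 to -0.18). P2ry12, its neighbour on chromosome 3 and the standard microglia marker, had -0.53 ± 0.21, and Olfml3 -0.33 ± 0.15. The median was -0.16 without WT stress 2, -0.41 without WT stress 1 and -0.37 without the low-striatum pair, with 13 of 14 lower in the last. Genes that microglia raise around amyloid stood at 6 higher and 14 lower of 20 (median -0.08).

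Genes of protein synthesis and respiration lay lower by small amounts. All 30 ribosomal protein genes were lower (median -0.13) and none had an unadjusted p under 0.05, with Rplp0 at -0.18 ± 0.11. Nuclear genes of the respiratory chain were lower for 24 of 26 (median -0.19), with Ndufv2 of complex I at -0.26 ± 0.12, and genes of the mitochondrial genome for 9 of 13 (median -0.17). CAA stress 2 was the lowest library for all 3 lists, and mitochondrial genes took 6.10% of its counts against 7.89% to 9.99% in the others. Without that library the 3 medians were -0.03, -0.06 and -0.03. Heat shock and chaperone genes were lower for 14 of 19 (median -0.11), with Hspa1a, the inducible Hsp70, at 0.59 ± 0.24 (95% interval 0.07 to 1.12). Genes of the integrated stress response were higher for 9 of 14 (median 0.10) and for 7 of 14 without the low-striatum pair, led by the pseudokinase Trib3 at 1.12 ± 0.52. Clock genes (11 of 18 higher, median 0.03) and synapse genes (15 of 23, median 0.07) had medians near that of all genes. Genes of the blood-brain barrier were higher for 11 of 17 (median 0.07), for 14 of 17 (median 0.25) without the low-striatum pair and for 4 of 17 (median -0.06) without the choroid-rich pair.

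Markers of brain regions and of the choroid plexus had large medians that moved with the pairs of libraries named above. All 20 striatal markers were higher under stress (median 0.66), but without the low-striatum pair 4 were higher and 16 lower (median -0.15). Drd1 lay at 3.87, 46.8, 28.9 and 6.87 CPM in mock and 50.2, 36.4, 27.0 and 24.4 CPM in stress. The 2 low mock values were those of WT mock 1 and CAA mock 2, and the other 2 lay within the stress range. Hypothalamic markers were higher for 16 of 17 (median 0.70, and 0.06 without the pair). Hippocampal markers were lower for 10 of 12 (median -0.76), and stood at 6 higher and 6 lower (median 0.01) without the pair. Choroid plexus markers were higher for 16 of 18 (median 1.29), and lower for 15 of 18 (median -0.30) without the choroid-rich pair. Ttr, the thyroid hormone carrier that the choroid plexus secretes, lay at 36.9, 3.31, 160 and 2.65 CPM in mock and 8.92, 449, 368 and 3.70 CPM in stress. Thalamic markers went from 9 of 13 higher with all libraries to 13 of 13 higher (median 0.50) without the low-striatum pair and 13 of 13 lower (median -0.40) without the choroid-rich pair. Olfactory bulb markers were higher for 11 of 13 (median 0.88), with a median of 0.42 without WT mock 1, 1.94 without WT mock 2 and 0.43 without the low-striatum pair. None of the genes of these 6 lists passed in edgeR.

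**Figure D3:**
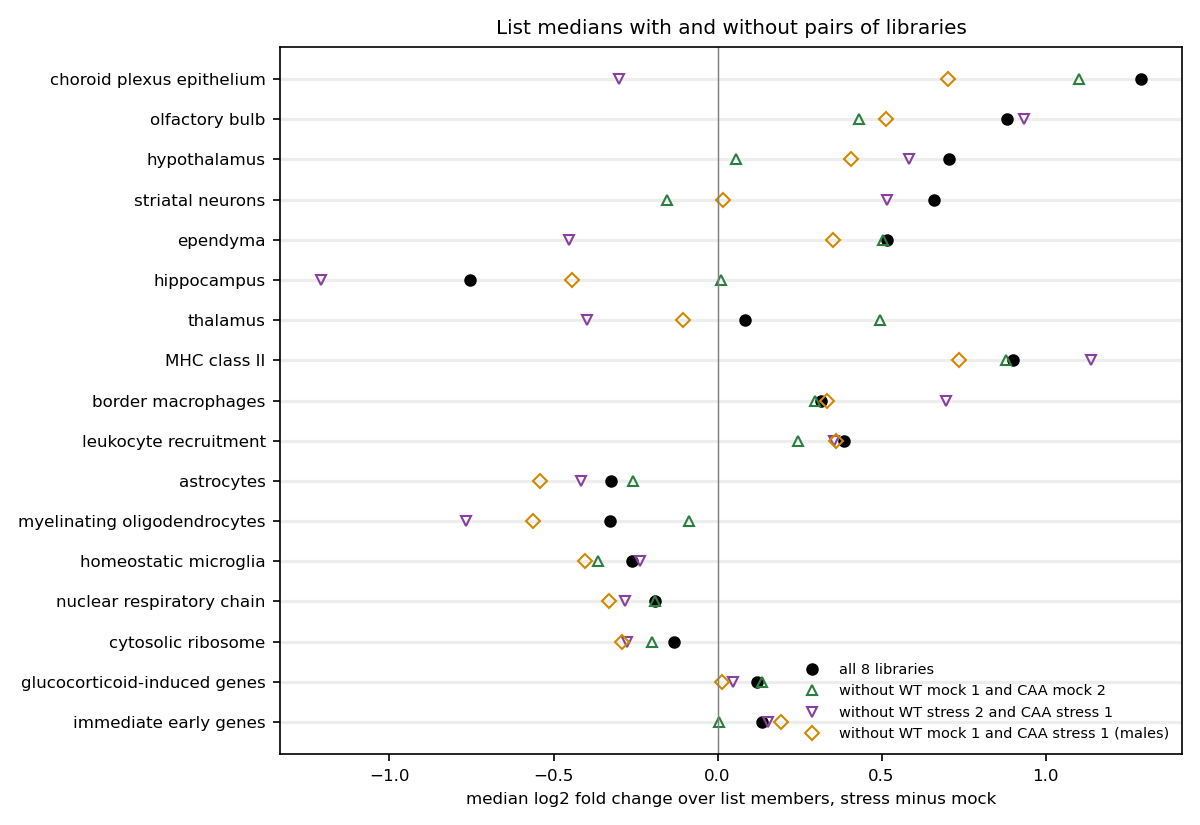
Median log2 fold change of stress minus mock over the members of 17 gene lists, with all 8 libraries (filled circles) and without each of 3 pairs of libraries (open symbols). Striatal (0.66 to -0.15), hippocampal (-0.76 to 0.01) and choroid plexus (1.29 to -0.30) medians lose or turn their direction without 1 pair, whereas the medians of MHC class II (0.74 to 1.14) and homeostatic microglia (-0.40 to -0.24) keep theirs.

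The genes with the smallest unadjusted p and no overlap between arms are described next, 12 in each direction, chosen by those values. Their values in subsets of the same libraries are thus no separate support. Entpd4b (ENSMUSG00000022066, chr14:69555424-69585520 in mm10, plus strand), a Golgi nucleotidase gene, had the smallest p. It lay at 1.72 and 1.63 CPM in WT mock, 0.701 and 0.901 in CAA mock, 5.58 and 10.7 in WT stress and 8.01 and 2.63 in CAA stress. All stress libraries lay above all mock libraries, by the least in CAA stress 2, and the highest values were those of the choroid-rich pair. Entpd4b had a log2 fold change of 2.48 ± 0.37 (95% interval 1.67 to 3.28, edgeR adjusted p = 0.384, DESeq2 adjusted p = 1.04e-06), 1.72 without that pair and 2.03 in males. This value is uncertain: in the GENCODE vM21 transcripts the longest of Entpd4b and of its copy Entpd4 (3589 bases each) differ at 0 positions, and all 8304 distinct windows of 150 bases in Entpd4b transcripts are also in Entpd4. Reads from these transcripts would match both genes, while the deposited table gives Entpd4b 12 to 194 counts per library and Entpd4 0 or 1. No source used here says how the counting dealt with such reads. Abca4, a retinoid transporter of photoreceptors, lay at 0.753, 1.63, 1.81 and 1.13 CPM in mock and 2.74, 7.06, 5.29 and 3.27 CPM in stress. Its 2 highest libraries were the choroid-rich pair, WT stress 2 and CAA stress 1. Its log2 fold change was 1.79 ± 0.37 (95% interval 0.97 to 2.60, edgeR adjusted p = 0.917, DESeq2 adjusted p = 0.0307) and 1.18 without that pair.

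Of the other higher genes Igsf3, an immunoglobulin superfamily membrane protein, lay at 14.8, 17.0, 13.4 and 13.1 CPM in mock and 22.3, 24.1, 18.0 and 23.6 CPM in stress, without overlap (0.60 ± 0.13, 95% interval 0.31 to 0.89). Flna, filamin A, which crosslinks actin, lay at 30.2, 29.6, 21.7 and 27.8 CPM in mock and 34.5, 37.7, 34.4 and 46.5 CPM in stress (0.49 ± 0.15). Both ranges stand apart by a small step beside the spread within an arm. Fras1, an extracellular matrix protein of basement membranes, had 0.66 ± 0.18, and Susd2, a sushi-domain membrane protein, 0.63 ± 0.19. Ackr2, a decoy receptor that removes inflammatory chemokines, lay at 2.10, 1.57, 1.11 and 2.03 CPM in mock and 3.83, 3.09, 3.16 and 3.32 CPM in stress (0.98 ± 0.27, 95% interval 0.38 to 1.57). The stress libraries were all above the highest mock library. Pla1a, a phosphatidylserine phospholipase, lay at 0.451 to 0.842 CPM in mock and 1.37 to 1.47 CPM in stress (1.25 ± 0.37). Xkr7, an XK-related membrane protein, had 1.21 ± 0.34, Naa40, an acetyltransferase of histone N termini, 0.49 ± 0.15, and Tac2, the neurokinin B precursor, 0.75 ± 0.23 (0.47 without the choroid-rich pair).

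Among the lower genes Hopx, a homeodomain protein of astrocytes and neural stem cells, had the smallest p. It lay at 20.4, 22.1, 23.2 and 25.5 CPM in mock and 15.2, 15.7, 15.9 and 12.9 CPM in stress. The arms did not overlap and the values within each arm lay close together. Hopx had a log2 fold change of -0.61 ± 0.13 (95% interval -0.90 to -0.32, edgeR adjusted p = 0.917), and it stayed between -0.71 and -0.52 without each library, each pair named above and in males. Having been chosen for arms without overlap, Hopx could hardly turn its sign in such subsets. Tst, the mitochondrial sulfurtransferase rhodanese, lay at 45.4, 42.1, 42.8 and 50.1 CPM in mock and 27.9, 26.2, 39.6 and 28.4 CPM in stress (-0.57 ± 0.13, 95% interval -0.86 to -0.28). CAA stress 1 stood above the other 3 stress libraries. Casp1, the inflammasome protease that matures interleukin-1 beta, lay at 1.99, 2.81, 1.93 and 3.49 CPM in mock and 1.48, 1.49, 0.600 and 1.02 CPM in stress (-1.19 ± 0.35, 95% interval -1.96 to -0.42).

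Klk8, neuropsin, a secreted protease that acts on synapses in the hippocampus and amygdala, lay at 4.20, 2.69, 3.80 and 4.06 CPM in mock and 1.42, 1.65, 1.64 and 2.57 CPM in stress (-1.03 ± 0.27, 95% interval -1.60 to -0.45). CAA stress 2 came closest to the mock libraries. Klk8 overlaps the antisense gene 2310002F09Rik by 382 bases, and Homer3, a scaffold of metabotropic glutamate receptors (-0.73 ± 0.20), overlaps Ddx49 on the other strand by 1496 bases. No source used here says whether the counting used strand, so reads in these stretches cannot be told apart. Adhesion genes among the lower genes were Pcdh20, a protocadherin (-0.58 ± 0.15, and -0.35 without the low-striatum pair), and Dsc3, a desmosomal cadherin (-1.86 ± 0.50, mock 1.18 to 4.06 CPM, stress 0.321 to 1.05 CPM). Dsc3 had -0.71 in WT and -3.03 in CAA (edgeR adjusted p of the difference 0.995). Phkb, a phosphorylase kinase subunit of glycogen breakdown, had -0.49 ± 0.14 and Ak4, a mitochondrial adenylate kinase, -0.39 ± 0.12. March1 (ENSMUSG00000036469), a ubiquitin ligase that removes MHC class II from the cell surface, lay at 43.2, 40.4, 38.8 and 44.1 CPM in mock and 36.9, 31.0, 30.3 and 28.6 CPM in stress (-0.40 ± 0.12, 95% interval -0.65 to -0.15). The deposited table gives its symbol as a spreadsheet date, and it was matched by its identifier. Tceal1 and Tmem144, a transcription elongation factor-like gene and a carbohydrate transporter, had -0.42 ± 0.12 and -0.51 ± 0.16.

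**Figure D4:**
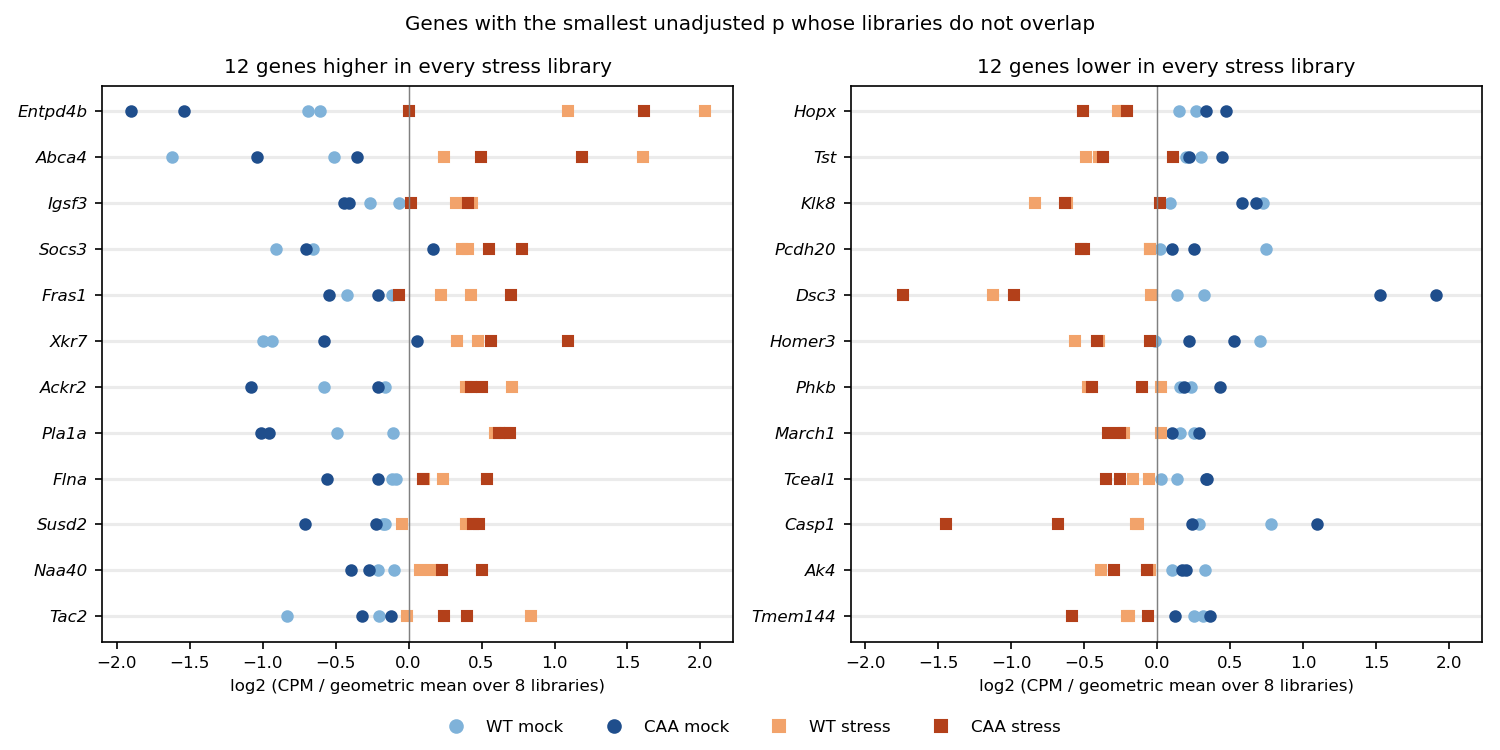
Level of 24 genes in each of the 8 libraries (log2 of CPM over the gene's geometric mean; circles mock, squares stress, light symbols WT and dark symbols CAA), 12 higher and 12 lower under stress, ordered by unadjusted p. The genes were chosen for having no overlap between arms; the gap between arms is narrow beside the spread within them for most, and it is wide for Hopx (mock 20.4 to 25.5, stress 12.9 to 15.9 CPM).

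Grp, which encodes gastrin-releasing peptide, was called lower by DESeq2 (adjusted p = 0.0129) though its arms overlapped. It had 176, 65, 211 and 266 counts in mock and 51, 55, 98 and 74 counts in stress, with WT mock 2 below the CAA stress libraries. The edgeR log2 fold change was -1.37 ± 0.27 (edgeR adjusted p = 0.917). Without WT mock 2 it was -1.61, and that of the hippocampal marker Fibcd1 was -1.36. Of the mock libraries WT mock 2 had the lowest level of hippocampal markers (-0.67) and the low-striatum pair the highest (0.96 and 0.84). Without that pair the log2 fold changes were -0.93 for Grp and -0.57 for Fibcd1.

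The pooled estimate takes the stress effect to be alike in WT and CAA mice, and the difference between the genotypes was tested in a fit with 4 group means. In edgeR 0 of 17182 genes (0%) passed for the difference and 595 (3.46%) had an unadjusted p under 0.05, against the same 859 from evenly spread p-values. DESeq2 called 4 (0.0233%). Within WT alone, with 2 libraries against 2, 0 genes (0%) passed in edgeR and 273 (1.59%) had an unadjusted p under 0.05. Within CAA alone 0 genes (0%) passed and 1193 (6.94%) had one. Some lists differed in their medians between genotypes, without a test of that difference. Sex cannot be told apart from it, since the female libraries are a mock library in WT and a stress library in CAA. MHC class II had a median of 1.33 in WT and 0.29 in CAA, and for Cd74 the values were 1.61 and 0.24 (CAA minus WT -1.37 ± 0.59, edgeR adjusted p = 0.995). Border macrophages stood at 0.90 and -0.19 and red cells at 2.86 and -0.16. The WT value of red cells rests on WT stress 1, whose level was 3.30 (-0.46 in WT stress 2). Without it the red cell median over both genotypes was -0.31. For border macrophages WT stress 1 lay at 0.77 and WT stress 2 at -0.17, both above the WT mock libraries (-0.78 and -0.36). Without WT stress 1 the border macrophage median over both genotypes was -0.04. The medians also differed for genes of the mitochondrial genome (0.02 and -0.35). Nr4a2 had -0.39 in WT and -1.36 in CAA (CAA minus WT -0.97 ± 0.32, edgeR adjusted p = 0.995). Astrocytes (-0.21 and -0.29), myelin (-0.32 and -0.34) and homeostatic microglia (-0.22 and -0.28) had medians of 1 sign in both genotypes.

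**Figure D5:**
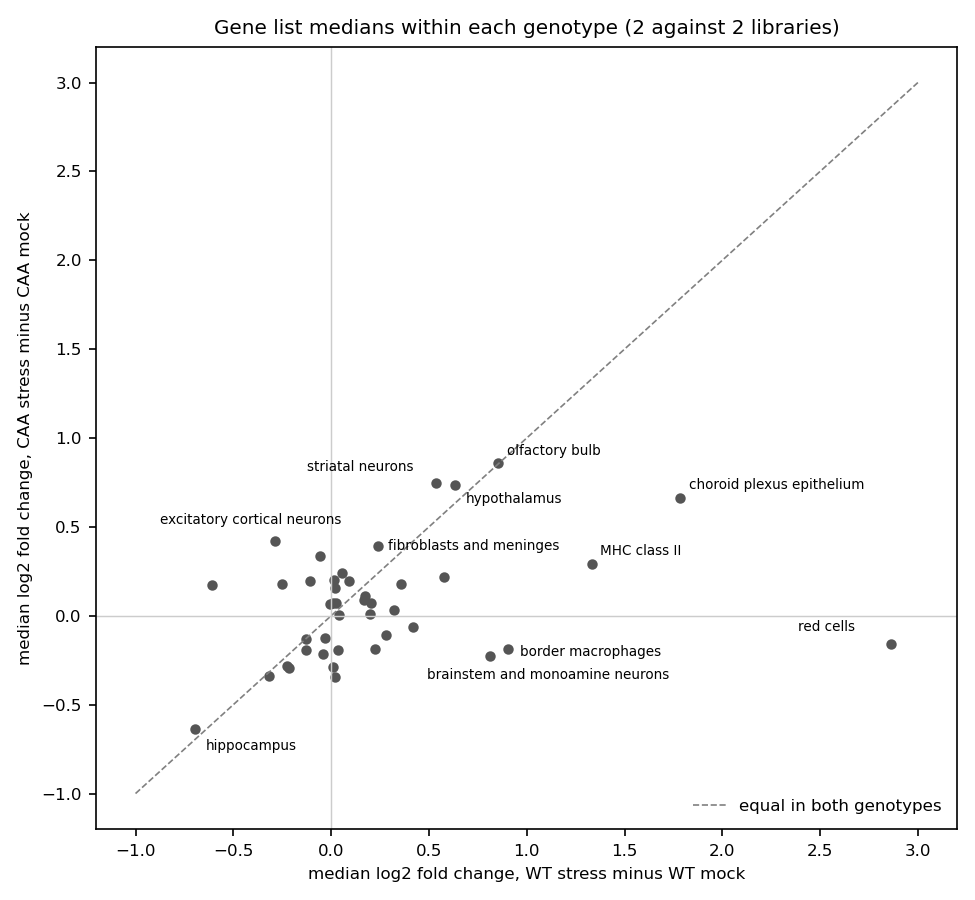
Median log2 fold change of stress minus mock over each of 43 gene lists in WT (x axis) and in CAA (y axis), 2 stress against 2 mock libraries in each; the dashed line marks equal values. Red cells (2.86 and -0.16; high in WT stress 1 alone of the WT libraries) lie furthest below the line, choroid plexus (1.78 and 0.67), border macrophages (0.90 and -0.19) and MHC class II (1.33 and 0.29) are also well below it, and most other lists lie near the origin or along the line.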

How the data were processed

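Gene counts for 8 mouse brain libraries were used as deposited. The authors made the read counts with HISAT2 2.0.5 and featureCounts 1.5.0-p3 on mm10, per the submitters' processing notes, and deposited FPKM values in a separate table. No source used here gives the counting parameters, the strand setting or the release of the annotation. Coordinates are those of the deposited tables, and groups come from the titles. No library repeated another: over genes, the chi-square of a pair divided by its degrees of freedom ran from 8.70 to 73.9.

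Genes were kept by filterByExpr with the 4 groups (at least 10 counts in enough libraries, 15 in total), scaled by TMM and fitted in edgeR 4.0.16 (R 4.3.3) with genotype and treatment as terms: a robust quasi-likelihood F-test, two-sided, Benjamini-Hochberg adjusted over all 17182 genes at 0.05. The fit had 5 residual degrees of freedom, a median of 7.32 prior degrees of freedom and a biological coefficient of variation of 0.202. The 95% interval of a gene uses that gene's own prior value. Each SE is the absolute log2 fold change divided by the square root of its F value. Alternatives were DESeq2 1.42.0, its size factors in edgeR, no filter, the 4 group means, no genotype term, the replicate number as a block, limma 3.58.1 on log2 FPKM with pseudocounts of 1 and 0.1, and each library left out. The pairs of libraries, males alone and a term for sex were added after seeing the data. The fit was tested on simulated counts.

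Genes named are the 12 in each direction with the smallest unadjusted p among those whose arms did not overlap, whose mean CPM was 1 or higher and whose symbol is not a clone name, the 2 members of each list with the smallest p, and a set of stress, neutrophil and glial genes. Other list members, Grp and single library counts were named after their values were seen. The comparison, the 43 gene lists (644 symbols with a list of sex-linked genes) and the rule were chosen with earlier results of these data known. Symbols stored as dates (27) were matched by identifier. One gene of the set is not reported here.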

Additional observations from a re-analysis of the deposited data

Results flagged for a closer look

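In 21 of 236 sets of 4 libraries examined, 1 gene in 1 arm each, a single library stood far from the other 3. Chance flags about 1 set in 20, and no cause was tested. Levels are in CPM.

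CAA stress 1 held 7 of the 21. It was high for Tst (39.6 against 26.2 to 28.4), Olig1, a factor of oligodendrocyte lineage (331 against 171 to 194), Barhl1, a marker of cerebellar granule cells (0.981 against 0 to 0.107), the T cell receptor gene Trac (1.31 against 0.214 to 0.386) and S100a9 (1.69 against 0.482 to 0.606). It was low for Neurod6, of cortical excitatory neurons (26.5 against 48.8 to 51.2), and for Cybb, the NADPH oxidase subunit of phagocytes (0.491 against 0.930 to 1.02). WT stress 1 was high for Icam1 (5.15 against 2.09 to 2.34) and for the haemoglobin genes Hba-a1 (45.6 against 0.964 to 6.49) and Hbb-bs (55.8 against 0.911 to 8.18).

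CAA mock 2 held 6. It was high for Aqp4 (299.8 against 186 to 191), the small heat shock protein gene Cryab (152 against 95.7 to 105), mt-Nd3 of complex I (67.7 against 49.2 to 51.0), Slc6a5, the neuronal glycine transporter (6.31 against 0 to 1.08), and Prkcd, a thalamic marker (45.2 against 11.1 to 16.5). It was low for the serotonin receptor gene Htr6 (2.31 against 4.09 to 4.38). WT mock 2 was high for the olfactory genes Omp (6.90 against 0.161 to 0.350) and Cdhr1 (36.9 against 4.41 to 6.83) and for Gad1, which makes GABA (404 against 285 to 301), and low for Nr4a2 (30.5 against 46.7 to 48.8). CAA mock 1 was low for Susd2 (5.49 against 7.72 to 8.03).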

How the results depend on the processing

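The count of 0 genes for stress held in edgeR with DESeq2's size factors, with 4 group means, without a genotype term, with a term for sex, in males, without either pair of libraries and in limma on log2 FPKM with either pseudocount. DESeq2 called 3 genes, and leaving out a library gave 0 to 2: Fibcd1 and Grp without WT mock 2, Entpd4b without CAA stress 2. Genes at an unadjusted p under 0.05 numbered 637, and 348 (without CAA stress 2) to 1486 (without WT stress 1) with a library left out. Without the filter edgeR called 188 genes for stress and 17 for the difference between genotypes. In that fit of 29446 genes the median prior degrees of freedom were infinite (7.32 with the filter). For the difference DESeq2 called 4 genes and leaving out a library gave 0 to 1. The replicate block called 0 genes for stress (smallest adjusted p 0.953) and 0 for the difference. The numbers were not taken as pairs: deviations of same-numbered libraries correlated at -0.27 to 0.15 over the 6 pairs of groups.

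Of 2360 values of 118 genes under the alternatives, 2299 kept their direction and their side of the threshold, 40 passed it (34 without the filter) and 21, of 12 genes, turned their sign. Many of these genes were chosen by small p or by arms without overlap in these same libraries, and none passed in the main fit. Such genes are apt to keep their sign and their side, so the 2299 is no measure of stability. Without the low-striatum pair the log2 fold change was 1.01 for Barhl1, 2.06 for Slc6a5, 0.031 for Nr3c1, -0.22 for Crh and -0.034 for Egr1. Without the choroid-rich pair it was -0.38 for Synpo2, -0.72 for Prkcd, -0.11 for Sgk1 and -0.31 for S100a9. In males it was -0.017 for Synpo2, -0.017 for Scn4b, -0.053 for Sgk1 and -0.47 for S100a9, and without a genotype term -0.00558 for Egr1. With a library left out it ran from -0.058 to 1.42 for S100a8, -0.15 to 1.503 for S100a9, -0.36 to 0.019 for Tsc22d3 and -0.13 to 0.14 for Egr1. Of 860 list medians 12 moved by more than the spread, the standard deviation of the list's level between libraries of a group. Libraries far from the rest widen that spread, so a median not counted is not thereby stable. Changes such as those of striatal neurons (0.66 to -0.15 without the low-striatum pair) and red cells (1.26 to -0.31 without WT stress 1) were not counted. Not yet given among the 12 were border macrophages and ependyma (0.70 and -0.45 without the choroid-rich pair), excitatory cortical neurons (0.37 in males) and pericytes (0.29 without the low-striatum pair). Heat shock stood at -0.25 without WT stress 1, and complement at 0.16 with CAA mock 1 left out and 0.22 with CAA stress 2 left out. In limma with a pseudocount of 1 leukocyte recruitment stood at 0.14, MHC class II at 0.41 and complement at 0.12. The cause was not tested for any of these. Low counts limit the neutrophil genes, and 4 libraries an arm limit every test.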

Other observations

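Genes of the meninges and of complement, lists not described above, lay mostly higher under stress without passing the test. Of 15 genes of fibroblasts and meninges 13 were higher (median log2 fold change 0.38), among them the collagen gene Col1a2 (0.77 ± 0.35), while Dcn, the matrix proteoglycan decorin, had -0.84 ± 0.36. These pooled values hide unlike values by genotype: Col1a2 had 0.17 in WT and 1.35 in CAA, and Dcn -0.06 in WT and -1.59 in CAA. The edgeR adjusted p of the difference was 0.995 for each. Leaving out CAA mock 1 gave a median of 0.16 for this list, and leaving out the low-striatum pair gave 0.76. Of 13 tested complement genes 9 were higher (median 0.38), with C1s1 and C1ra, the proteases of the C1 complex, at 0.80 ± 0.51 and 0.66 ± 0.45. The recognition subunits of the same complex, which microglia make, had -0.10 ± 0.14 (C1qa), -0.08 ± 0.16 (C1qb) and -0.14 ± 0.15 (C1qc). Inhibitory interneuron genes were higher for 10 of 13 (median 0.17), led by Reln, the secreted protein reelin (0.36 ± 0.16), and Gad1 (0.32 ± 0.14).

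Some genes outside the rule and the lists were noticed by their values. Msr1, a scavenger receptor of macrophages, had 1, 1, 0 and 2 counts in the mock libraries and 13, 14, 9 and 17 in the stress libraries (log2 fold change 3.53 ± 0.70, edgeR adjusted p = 0.917). The arms did not overlap, and the values were 3.60 in WT and 3.47 in CAA. Fermt1, the integrin activator kindlin-1, had 16, 4, 34 and 44 counts in mock and 3, 3, 3 and 2 in stress (-2.94 ± 0.63). Thbs4, an extracellular matrix thrombospondin, had -1.11 ± 0.28, and Plxna2, a semaphorin receptor, 0.43 ± 0.12, with overlap in a single pair of libraries.

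The rows of a pair of housekeeping genes varied in ways that make them poor references here. The Gapdh row held 38 to 1894 counts per library, and the Rpl21 row 862, 1739, 1375 and 1176 counts in mock against 648, 814, 867 and 636 in stress (-0.85 ± 0.21). Both genes have many processed copies in the genome that could share their reads, so these rows are uncertain.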
